A study of Homo sapiens with 6 samples.

Results

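The 10 genes described here are the receptors of fibroblast growth factor (FGF) signalling and genes that hold it in check: the receptors FGFR1, FGFR2, FGFR3 and FGFR4, the binding protein FGFBP3, and the inhibitors SPRY1, SPRY2, SPRY4, SPRED1 and DUSP6. Each was matched by its symbol among the 56595 symbols of the expression table. All 10 passed the filter on low values that left 15875 genes for testing.

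The cells were derived from H1, an established human embryonic stem cell line, and were collected at day 8 of a stepwise differentiation towards blood in medium to which basic FGF was added. Wild-type H1 (WT) gave 2 libraries, and H1 with a knockout of MSX2, a homeobox transcription factor, gave 4 libraries from 2 clones, named here 1# and 2# as the table numbers them, with replicate numbers 1 and 2 in each. The knockout lines were made with a lentiviral vector carrying Cas9 and 1 guide and were selected with puromycin, and each is a single clone. The labels name CD31+ cells, the endothelial fraction from which blood cells arise, only for the knockout libraries, while the methods of the study name that fraction for both genotypes. The growth note shared by all the samples also mentions overexpression of HAND1, which no label assigns to a library. Nothing in the labels says whether replicates came from separate cultures, so the p-values measure only the spread between these libraries.

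FGFs bind their receptors, which are tyrosine kinases, together with heparan sulphate, and FGFBP3 belongs to the proteins that carry FGFs away from the matrix. Activated receptors signal through RAS and the kinase ERK. ERK signalling switches on its own inhibitors: the Sprouty proteins (SPRY) and SPRED1 act between the receptor and RAF, and DUSP6 is a phosphatase that inactivates ERK. In early development FGF signalling takes part in the formation of mesoderm, from which endothelium and blood arise.

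The stretches of 250 bases upstream of the annotated starts (RefSeq, GRCh38.p14) are shown for 4 genes that come up repeatedly below: FGFR3 at chr4:1793043-1793292 on the plus strand, FGFBP3 at chr10:91909487-91909736 on the minus strand, SPRY4 at chr5:142324248-142324497 on the minus strand, and SPRY1 at chr4:123396545-123396794 on the plus strand, the first of its 2 starts in the table. The SPRY4 stretch lies inside the span of the gene as annotated by GENCODE, partly in an exon of a transcript without a coding sequence. Each reads 5′ to 3′ towards the start, and capitals mark GC boxes (GGGCGG or its reverse complement CCGCCC). A search for ETS motifs (CCGGAA or its reverse complement TTCCGG) found none in these 4 stretches. ETS factors are among the transcription factors that ERK acts on.
FGFR3: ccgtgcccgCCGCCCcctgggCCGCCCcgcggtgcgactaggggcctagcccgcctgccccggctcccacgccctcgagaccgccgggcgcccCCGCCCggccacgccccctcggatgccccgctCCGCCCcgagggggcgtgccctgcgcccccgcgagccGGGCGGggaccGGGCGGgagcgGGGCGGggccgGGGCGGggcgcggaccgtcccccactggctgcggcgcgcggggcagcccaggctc
FGFBP3: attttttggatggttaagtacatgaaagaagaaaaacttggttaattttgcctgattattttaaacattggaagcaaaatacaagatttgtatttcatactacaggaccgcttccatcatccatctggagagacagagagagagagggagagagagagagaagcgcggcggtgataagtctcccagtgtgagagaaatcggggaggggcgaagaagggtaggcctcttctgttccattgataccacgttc
SPRY4: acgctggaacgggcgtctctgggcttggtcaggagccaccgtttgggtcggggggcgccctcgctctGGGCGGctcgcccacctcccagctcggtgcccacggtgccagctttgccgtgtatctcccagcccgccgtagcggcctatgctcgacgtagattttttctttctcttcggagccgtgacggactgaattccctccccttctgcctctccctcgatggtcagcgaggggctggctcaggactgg
SPRY1: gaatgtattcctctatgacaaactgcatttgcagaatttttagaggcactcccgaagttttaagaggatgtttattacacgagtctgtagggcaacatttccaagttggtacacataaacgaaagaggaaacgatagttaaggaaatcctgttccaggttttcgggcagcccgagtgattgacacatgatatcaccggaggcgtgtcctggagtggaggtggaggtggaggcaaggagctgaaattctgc
The FGFR3 stretch had a GC content of 86.8% and held 8 GC boxes. The FGFBP3 stretch, at 43.2% GC, held no GC box, and neither did the SPRY1 stretch at 45.6% GC. SPRY4 had 1 GC box at 65.6% GC. The stretch before the second start of SPRY1, not shown, held 2 GC boxes and 1 ETS motif at 68% GC. Over 17 starts of 9 of the 10 genes, 8 starts held a GC box, as did 42.6% of all 35116 promoters in the table, and 2 starts, of SPRY1 and SPRY2, held an ETS motif, against 14.5% of all promoters. The letters TAATTG or CAATTA, a core that MSX homeodomains bind, occurred at 1 start, of FGFR2, and in 6.7% of all promoters. These matches describe letters only, and no binding data were analysed here.

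Expression was given as FPKM (fragments scaled to transcript length and to the fragments mapped in the library), which allows levels to be compared between genes per length. The libraries summed to 555286 to 617120 FPKM over all symbols, and 13366 to 14222 genes reached 1 FPKM in them. Without counts the sequencing depth is unknown. The targeted gene did not check the labels: MSX2 mRNA was at 3.64 and 1.44 FPKM in WT and at 18.0, 5.62, 31.8 and 6.69 FPKM in clone 1# replicates 1 and 2 and clone 2# replicates 1 and 2. All 4 libraries labelled knockout were thus higher in MSX2 mRNA than both WT libraries (log2 difference 1.99, limma adjusted p = 0.309, or 0.0107 once the replicate numbers entered the fit as a block), and whether the protein was lost cannot be read from mRNA. MSX2-/- below means the libraries labelled so, and the directions given rest on those labels.

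Of the 10 genes, 3 were higher in MSX2-/- at an adjusted p under 0.05 in limma, namely FGFR3, FGFBP3 and SPRY4, and none was lower. None of the 3 passed without the filter on low values or with WT and the clones fitted as 3 groups. Among all genes tested, 1.29% were called, 0.964% higher and 0.321% lower. In the fit that blocks on replicate number 6 were called, where 9.92% of all genes were. Of these 5 were higher (FGFR3, FGFBP3, SPRY1, SPRY4 and SPRED1), where 6.15% of all genes were, and 1, DUSP6, was lower, where 3.77% of all genes were. The same 5 genes lay above both WT libraries in all 4 MSX2-/- libraries, as did 12.1% of genes, and DUSP6 lay below both, as did 9.19%, so that 21.3% of all genes did not overlap in one direction or the other. The median log2 difference of the 10 genes was 0.55, against 0.01 over all genes. The 10 genes were chosen with the calls of FGFR3, FGFBP3 and SPRY4 known, so this contrast in medians is no independent support. Log2 differences and their standard errors (SE) are on the scale of log2(FPKM + 1) throughout, which understates changes of low genes. In bulk RNA, fewer cells of a type and less RNA per cell cannot be told apart.

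**Figure D1:**
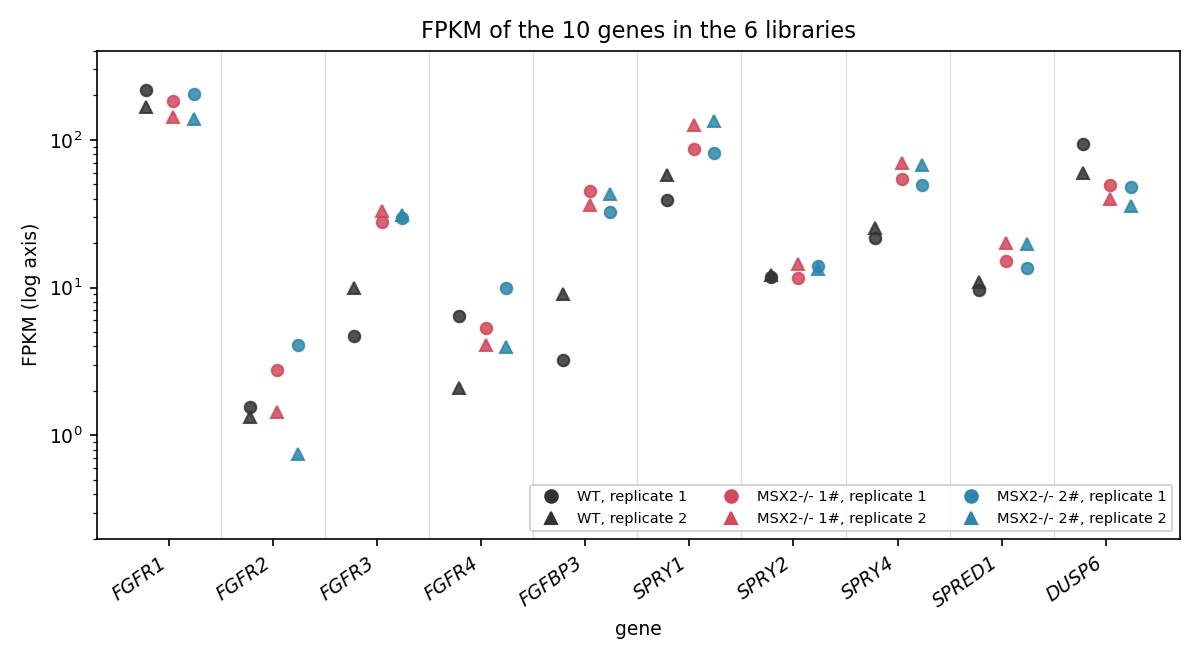
FPKM of the 10 genes on a log axis, with a point for each library, coloured by WT and the clones 1# and 2#. FGFR3, FGFBP3, SPRY1, SPRY4 and SPRED1 sit above both WT libraries in all 4 MSX2-/- libraries, and DUSP6 sits below both.

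Among the receptors, FGFR3 was the only one called between the genotypes, with or without the block. FGFR3, a receptor best known from cartilage and bone growth, was at 4.73 FPKM in WT replicate 1 and 9.93 FPKM in WT replicate 2. In MSX2-/- it was at 27.6 and 32.8 FPKM in clone 1# and at 29.4 and 31.0 FPKM in clone 2#. The 4 knockout libraries lay close together and far from WT, whose 2 libraries differed from each other by 2.10 times. The mean rose from 7.33 ± 3.67 (SD, n = 2) to 30.2 ± 2.19 FPKM (SD, n = 4), 4.12 times, and the log2 difference was 1.98 (SE 0.26, limma adjusted p = 0.0273; 0.00266 with the block). Leaving out 1 library at a time without the block kept the call only without WT replicate 2, with adjusted p from 0.0206 to 0.107 and log2 differences from 1.51 (without WT replicate 1) to 2.44 (without WT replicate 2). With the block, FGFR3 stayed under 0.05 in 6 of 6 such fits.

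FGFR1, the receptor through which basic FGF chiefly acts in pluripotent cells and mesoderm, was by far the most abundant. It was at 215 and 166 FPKM in WT, at 182 and 143 FPKM in clone 1#, and at 205 and 138 FPKM in clone 2#. The genotypes overlapped, and in WT and in each clone replicate 2 was the lower of the pair. LETM2, a gene on the opposite strand within the same span, was at 0.462 to 1.92 FPKM. The log2 difference was -0.20 (95% interval -0.67 to 0.28, limma adjusted p = 0.825), and 0.138 with the block. With no block, omitting WT replicate 1 gave -0.01, and omitting WT replicate 2 gave -0.38. Within a replicate number, each of the 4 MSX2-/- libraries was below its WT library, with log2 differences from -0.26 to -0.07. The same held for 21.4% of all genes tested.

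FGFR4, a receptor prominent in liver and muscle precursors, was at 6.43 and 2.11 FPKM in WT. It was at 5.29 and 4.10 FPKM in clone 1# and at 9.99 and 3.96 FPKM in clone 2#. The values of 3 of the 4 MSX2-/- libraries lay between those of WT, and the log2 difference was 0.43 (95% interval -0.65 to 1.51, limma adjusted p = 0.839). Its direction rested on 1 library, since without WT replicate 2 the difference was -0.20.

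FGFR2, the receptor of many epithelia, was the lowest, at 1.55 and 1.34 FPKM in WT. It was at 2.79 and 1.45 FPKM in clone 1# and at 4.10 and 0.752 FPKM in clone 2#, where both the highest and the lowest value of the 6 libraries stood. The log2 difference was 0.30 (95% interval -0.71 to 1.32, limma adjusted p = 0.894), and it turned to -0.17 in the blocked fit without WT replicate 1.

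The summed FPKM of the 4 receptors was nearly equal in the genotypes, while its make-up was not. For WT the sum averaged 204 ± 34.3 FPKM (SD over 2 libraries) and for MSX2-/- 205 ± 34.5 FPKM (SD over 4 libraries), with a two-sided exact permutation p of 1. FGFR1 made up 94.4% and 92.6% of it in WT, and 83.6%, 78.9%, 82.5% and 79.5% in clone 1# replicates 1 and 2 and clone 2# replicates 1 and 2. FGFR3 made up 2.07% and 5.52% of it in WT, and 12.7%, 18.1%, 11.8% and 17.8% in the same 4 libraries. Neither share overlapped between the genotypes. The exact permutation p was 0.133 for each of these shares, and 0.533 for those of FGFR2 and FGFR4. With 2 against 4 libraries there are 15 splits, and 0.133 is the smallest two-sided p they allow, so this test cannot reach 0.05. In WT the order was FGFR1 above FGFR3 above FGFR4 above FGFR2 by mean, but FGFR3 and FGFR4 overlapped there. In MSX2-/- the gap between FGFR1 and FGFR3 narrowed from ratios of 45.6 and 16.8 in WT to between 4.37 and 6.96.

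FGFBP3, the secreted FGF carrier, showed the largest log2 difference of the 10 genes. It was at 3.23 and 9.01 FPKM in WT, at 45.2 and 36.1 FPKM in clone 1#, and at 32.7 and 42.9 FPKM in clone 2#. Even the lowest MSX2-/- library was well above the higher WT library. The mean rose from 6.12 ± 4.09 (SD, n = 2) to 39.2 ± 5.84 FPKM (SD, n = 4), 6.41 times, with a log2 difference of 2.62 (SE 0.34, limma adjusted p = 0.0273; 0.00469 with the block). As for FGFR3, WT replicate 1 was the lower of the WT pair, and the call without the block was kept only without WT replicate 2 when 1 library was left out (adjusted p 0.0206 to 0.109). Omitting WT replicate 1 gave a log2 difference of 2.00, and omitting WT replicate 2 gave 3.24. An antisense gene, AL359198.1, lies opposite FGFBP3 in the annotation. It was at 1.10 and 1.16 FPKM in WT and at 1.30 to 2.46 FPKM in MSX2-/-, and without a statement on strand its reads and those of FGFBP3 cannot be told apart.

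Of the Sprouty genes, SPRY4 and SPRY1 lay higher in MSX2-/- and SPRY2 stayed near its WT level. SPRY4 was at 21.7 and 25.1 FPKM in WT, at 54.1 and 69.8 FPKM in clone 1#, and at 49.6 and 67.8 FPKM in clone 2#. WT was tight, and every MSX2-/- library was at least 49.6 FPKM. The mean rose from 23.4 ± 2.42 (SD, n = 2) to 60.3 ± 9.99 FPKM (SD, n = 4), 2.58 times, with a log2 difference of 1.32 (SE 0.18, limma adjusted p = 0.0299; 0.00129 with the block). Leaving out 1 library without the block kept the call only without clone 2# replicate 1 (adjusted p 0.0499 to 0.203). SPRY4-AS1, on the opposite strand, was at 0.844 and 0.812 FPKM in WT and at 0.378 to 1.30 FPKM in MSX2-/-, far below SPRY4.

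SPRY1, the most abundant Sprouty gene, was at 39.4 and 57.5 FPKM in WT. It was at 87.2 and 126 FPKM in clone 1# and at 81.5 and 134 FPKM in clone 2#. The groups did not overlap, and replicate 2 was the higher library in WT and in both clones. The log2 difference was 1.12 with an SE of 0.26 and a limma adjusted p of 0.125, so SPRY1 passed the threshold only with the block, where the SE was 0.07 and the adjusted p 0.00121. Omitting WT replicate 1 in the fit with no block gave 0.85, and omitting WT replicate 2 gave 1.38. Within a replicate number the differences were nearly alike, from 1.03 to 1.20.

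SPRY2 was at 11.9 and 12.2 FPKM in WT, at 11.6 and 14.5 FPKM in clone 1#, and at 14.01 and 13.5 FPKM in clone 2#. The log2 difference was 0.14 (95% interval -0.21 to 0.48, limma adjusted p = 0.833; 0.462 with the block). That interval excludes a difference as large as the estimates for SPRY1 and SPRY4, although the genes were not tested against each other.

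SPRED1, a Sprouty-related inhibitor that works with neurofibromin on RAS, was at 9.63 and 10.8 FPKM in WT. It was at 15.2 and 20.1 FPKM in clone 1# and at 13.7 and 19.8 FPKM in clone 2#, all above WT. The log2 difference of 0.68 had a limma adjusted p of 0.223 without the block and of 0.0139 with it, and the blocked call was kept in 2 of 6 fits that left out a library.

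DUSP6, the ERK phosphatase, lay lower in MSX2-/-. It was at 93.1 and 59.2 FPKM in WT, at 49.7 and 39.7 FPKM in clone 1#, and at 47.8 and 35.7 FPKM in clone 2#. Each MSX2-/- library was below both WT libraries, and replicate 2 was lower than replicate 1 in WT and in both clones. Its mean of 43.2 ± 6.59 FPKM in MSX2-/- (SD, n = 4) was 0.568 times the WT mean of 76.2 ± 23.9 FPKM (SD, n = 2). The log2 difference was -0.78 (SE 0.22, limma adjusted p = 0.211), and the gene passed only with the block (SE 0.09, adjusted p = 0.00615). With no block, omitting WT replicate 1 gave -0.46, and omitting WT replicate 2 gave -1.10. AC024909.2, on the strand opposite DUSP6, was listed at 0 in all 6 libraries.

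DUSP6 was the most abundant of the 5 inhibitors in WT by mean, followed by SPRY1, SPRY4, SPRY2 and SPRED1. In WT the lower DUSP6 library, at 59.2 FPKM, was just above the higher SPRY1 library, at 57.5 FPKM. In MSX2-/- the order by mean was SPRY1, SPRY4, DUSP6, SPRED1 and SPRY2, and SPRED1 and SPRY2 overlapped, as did SPRY4 and DUSP6 at their edges. The ratio of SPRY4 to DUSP6 was 0.233 and 0.424 in WT, and 1.09, 1.76, 1.04 and 1.90 in clone 1# replicates 1 and 2 and clone 2# replicates 1 and 2. It sets the inhibitor with the largest rise against the only inhibitor that lay lower, so it adds no support to the values of the single genes. The summed FPKM of SPRY1, SPRY2, SPRY4 and SPRED1 averaged 198 ± 40.0 for MSX2-/- (SD over 4 libraries), 2.10 times the 94.1 ± 16.3 of WT (SD over 2 libraries), with a two-sided exact permutation p of 0.133. This sum leaves out DUSP6, the inhibitor that lay lower in MSX2-/-, so it does not describe the 5 inhibitors together.

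The differences from WT were of like size in the clones. For FGFR3 the log2 difference was 1.97 in clone 1# and 1.98 in clone 2#, for FGFBP3 2.67 and 2.56, for SPRY4 1.36 and 1.28, for SPRY1 1.12 and 1.12, for SPRED1 0.72 and 0.64, and for DUSP6 -0.73 and -0.83. With 2 libraries a clone, no member passed the adjusted limma test in either clone, where 0.0063% of all genes did, and 6 of the 10 were at an unadjusted p under 0.05 in each, as were 1172 of the 15875 genes in clone 1# and 1181 in clone 2#. With the block, the same 5 genes, FGFR3, FGFBP3, SPRY1, SPRY4 and DUSP6, passed in each clone, 4 higher and 1 lower. Of all genes, 3.46% passed in clone 1#, 2.29% higher and 1.17% lower, and 3.75% passed in clone 2#, 2.61% higher and 1.15% lower. The clones share the WT libraries, so these lists are not independent. Between the clones none of the 10 genes was called by limma or at an unadjusted p under 0.05, with or without the block. The difference of clone 2# from clone 1# had a 95% interval of -0.81 to 0.82 for FGFR3, of -1.17 to 0.96 for FGFBP3, of -0.65 to 0.49 for SPRY4 and of -0.98 to 1.75 for FGFR4, which leaves room for sizeable differences.

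The replicate number moved several of these genes in WT and knockout alike. Taking genotype into account, 5 of the 10 differed between replicate 2 and replicate 1 in limma, as did 28% of all genes, 12.5% higher and 15.5% lower. FGFR1 was lower in replicate 2, with a log2 difference of -0.43 (adjusted p = 0.0136), as were FGFR4 at -0.90 (adjusted p = 0.032) and DUSP6 at -0.46 (adjusted p = 0.021). SPRY1 was higher by 0.59 (adjusted p = 0.00731) and SPRY4 by 0.34 (adjusted p = 0.0369). The labels give replicates 1 and 2 a different set letter, and say nothing more of what separated the sets.

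Set against its own WT library, each gene could be followed within a replicate number. FGFR3, FGFBP3, SPRY1, SPRY4 and SPRED1 were higher in 4 of 4 such comparisons, as were 23.6% of all genes, and FGFR1 and DUSP6 were lower in 4 of 4, as were 21.4%. Either direction in 4 of 4 was shown by 45% of all genes. The mean difference for FGFBP3 was 3.22 in replicate 1 and 2.01 in replicate 2, and for FGFR3 it was 2.37 and 1.59. For FGFBP3 the ratio of replicate 2 to replicate 1 was 2.79 in WT, 0.797 in clone 1# and 1.31 in clone 2#, and for FGFR3 it was 2.10, 1.19 and 1.05. In the test of whether the genotype difference itself differed between replicate numbers, none of the 10 genes was called by limma, where 0.0189% of all genes were. FGFR3 (-0.78) and FGFBP3 (-1.21) were at an unadjusted p under 0.05, as were 1816 of the 15875 genes.

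**Figure D2:**
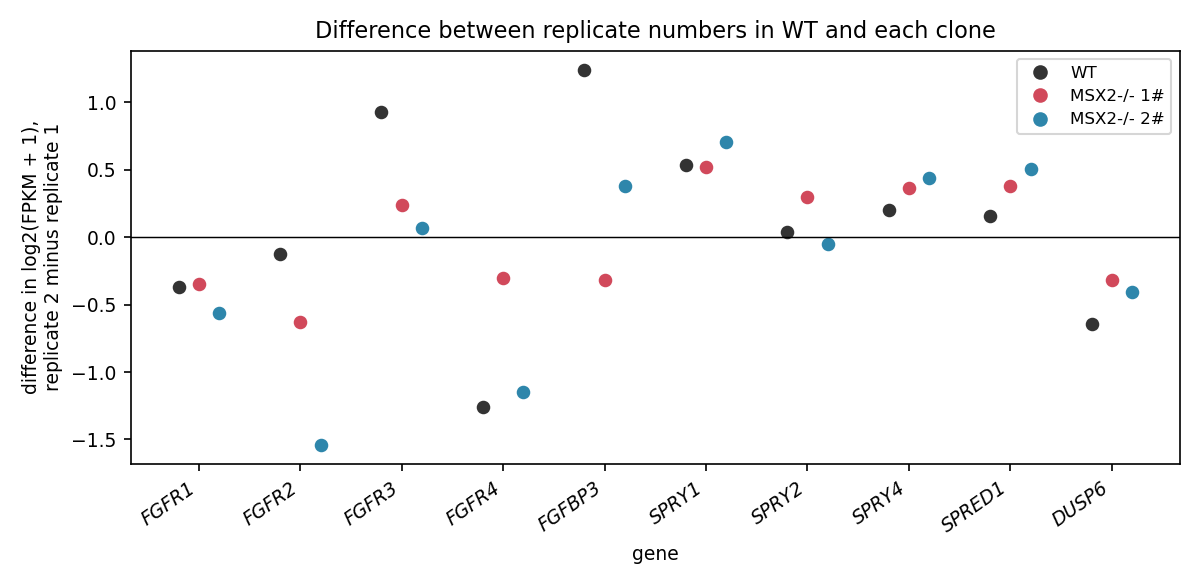
Log2 difference from the WT library that carries the matching replicate number, for each gene, with a point for each of the 4 MSX2-/- libraries by clone and replicate number. FGFR3, FGFBP3, SPRY1, SPRY4 and SPRED1 are above 0 in all 4 and FGFR1 and DUSP6 below 0 in all 4, and FGFBP3 spans 1.89 to 3.45.

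The rest of the pathway was read from lists of related genes, and in them the test called 1 gene, EPHA2. Over all genes tested, 1.29% were called. With the block the share was 9.92%, 6.15% higher and 3.77% lower, to be set beside the counts that follow. Of 18 FGF ligand genes, 4 passed the filter and none was called by limma with or without the block, with a median log2 difference of 0.18. FGF2, the gene of basic FGF, was at 7.77 and 4.93 FPKM in WT and at 5.81 to 10.6 FPKM in MSX2-/-. Of 23 adaptors and members of the RAS to ERK chain, all tested, none was called without the block, and with it MAPK3, which encodes the kinase ERK1, was lower (log2 difference -0.45, adjusted p = 0.0253). The median of that list was -0.01. The genes named from these lists for passing with the block only were picked after their values were seen.

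Among co-receptors and binding proteins, 17 of 20 were tested, none was called without the block, and 3 were higher with it. SULF2, an enzyme that trims sulphate from heparan sulphate, was at 40.3 and 31.0 FPKM in WT and at 117, 68.7, 119 and 70.4 FPKM in clone 1# replicates 1 and 2 and clone 2# replicates 1 and 2. Its log2 difference was 1.33 (adjusted p = 0.101, or 0.00162 with the block). The heparan sulphate proteoglycans SDC4 (0.90, adjusted p = 0.00852 with the block) and GPC4 (0.82, adjusted p = 0.0112 with the block) were the other two. KL, the co-receptor klotho, passed neither fit, with a log2 difference of -0.55.

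Of 17 further feedback inhibitors 15 were tested and none was called without the block, while with it 4 were higher and 1 lower. The higher genes were the phosphatases DUSP1 (0.76, adjusted p = 0.00355), DUSP7 (0.44, adjusted p = 0.0188) and DUSP10 (1.25, adjusted p = 0.00725) and the receptor inhibitor ERRFI1 (0.61, adjusted p = 0.0283). The lower gene was SPRED3 (-0.72, adjusted p = 0.0464), a relative of SPRED1. DUSP10, which acts mainly on the stress kinases p38 and JNK, was at 0.997 and 1.49 FPKM in WT and at 2.82, 5.58, 3.39 and 6.20 FPKM in the 4 MSX2-/- libraries. Thus DUSP6 and SPRED3 lay lower and other genes of the same families higher.

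ERK-responsive genes also went both ways. EPHA2, an ephrin receptor, was at 49.5 and 49.2 FPKM in WT and at 80.7, 77.4, 72.4 and 81.9 FPKM in MSX2-/-, with a log2 difference of 0.65 (adjusted p = 0.0425, or 0.00542 with the block). It was the 1 gene called of 17 tested. With the block 7 were higher and 2 lower, the latter the ETS factors ETV1 and ETV4, commonly used as readouts of FGF signalling. ETV1 was at 11.3 and 7.06 FPKM in WT and at 4.07, 2.56, 4.29 and 2.09 FPKM in MSX2-/- (log2 difference -1.27, adjusted p = 0.133, or 0.0029 with the block). ETV4 differed by -0.51 (adjusted p = 0.00797 with the block), and ETV5 by -0.35 (adjusted p = 0.0616 with the block). MYC, by contrast, was at 17.8 and 42.4 FPKM in WT and at 39.7, 104, 39.0 and 116 FPKM in MSX2-/- (1.22, adjusted p = 0.494, or 0.00162 with the block). The other 5 higher genes were FOSL1, CCND1, ELK1, MCL1 and VGF, from 0.31 to 1.23.

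**Figure D3:**
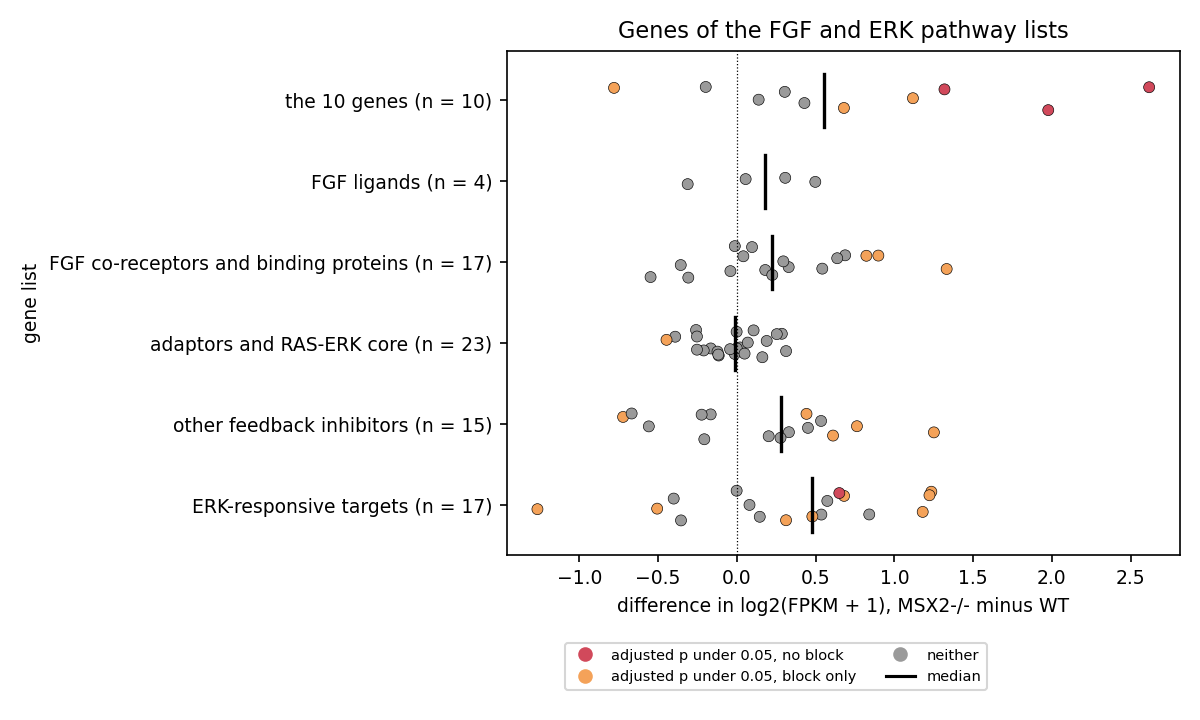
Log2 difference between MSX2-/- and WT in log2(FPKM + 1) for each tested gene of the 10 genes and 5 related lists, with a bar at each median and colours for limma calls without and with the replicate block. The median is 0.55 for the 10 genes and lies between -0.01 and 0.48 for the other lists.

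Markers of several cell types differed in the same libraries. The 10 endothelial markers summed to 2517 and 2657 FPKM in WT and to 1688 to 2088 FPKM in MSX2-/-, with CDH5 and TIE1 called lower. With the block 7 were lower and 1, ENG, was higher, at 90.9 and 91.0 FPKM in WT and 129 to 160 FPKM in MSX2-/-. PECAM1, the gene of CD31, was at 258 and 218 FPKM in WT and at 186 to 230 FPKM in MSX2-/-. The 10 blood markers summed to 119 and 147 FPKM in WT and to 252 to 384 FPKM in MSX2-/-, with GATA1 and KLF1 called higher. HBE1 was at 36.6 and 24.4 FPKM in WT, at 125 and 164 FPKM in MSX2-/- replicate 1, and at 36.5 and 35.9 FPKM in MSX2-/- replicate 2. With the block 6 of the list were higher and none lower. Among the 6 was SPN, the gene of CD43, at 6.19 and 11.3 FPKM in WT and at 14.4 to 17.4 FPKM in MSX2-/-. PTPRC was under 1 FPKM in all the libraries. The 10 mesenchymal markers summed to 294 and 345 FPKM in WT and to 509 to 595 FPKM in MSX2-/-, with COL1A1 and TAGLN called higher and DCN under 1 FPKM throughout. These 2 genes carried most of the rise, COL1A1 from a mean of 41.8 to 198 FPKM and TAGLN from 24.4 to 91.0 FPKM, while COL1A2 (log2 difference -0.07) and COL3A1 (-0.54) were not called. With the block 4 of the list were higher. The 4 cardiac markers summed to 31.7 and 42.4 FPKM in WT and to 51.5 to 86.5 FPKM in MSX2-/-, nearly all of it NKX2-5 (means of 36.2 and 68.5 FPKM), and TNNT2, ACTN2 and MYH6 reached at most 1.31 FPKM in any library. The 5 pluripotent markers summed to 63.1 and 74.1 FPKM in WT and to 80.7 to 99.3 FPKM in MSX2-/-, with NANOG and SOX2 under 1 FPKM in all the libraries. Most of it was LIN28A (means of 42.3 FPKM in WT and 57.7 FPKM in MSX2-/-) and DPPA4 (23.6 and 29.5 FPKM). POU5F1 had means of 2.61 and 2.67 FPKM. Of this list only LIN28A was called, and only with the block (log2 difference 0.45). The 7 endoderm and liver markers ranged most, from 43.0 and 71.7 FPKM in WT to 15.6 to 239 FPKM in MSX2-/-, and none was called without the block. With the block 2 of them, EPCAM and CDH1, were higher and none lower. ALB was at 20.7 and 44.8 FPKM in WT, at 122 and 125 FPKM in clone 1#, and at 15.3 and 0 FPKM in clone 2#. The part of these differences in the levels of the 10 genes was not tested.

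For each of the 3 genes called without the block, the 2 genes with the most similar course over the 6 libraries were looked up, by Pearson's r of log2(FPKM + 1). For FGFR3 these were PLAT (r = 0.999) and TSPAN32 (r = 0.997), for FGFBP3 SVEP1 (r = 0.998) and CD55 (r = 0.997), and for SPRY4 IGSF11 (r = 0.999) and SH2D2A (r = 0.996). Of these, SVEP1 was low in every library, at 0.139 to 0.748 FPKM. IGSF11 was at 0.365 and 0.606 FPKM in WT and at 2.45 to 3.73 FPKM in MSX2-/-. The points share libraries, normalization and the genotype difference, and r is given as a description over 6 points.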

How the data were processed

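RNA-seq was read from 1 deposited table of FPKM values, made by the authors and normalized to transcript length and library size, with 6 columns, 58364 rows with values and 1 row without. The submitters' processing notes name BWA, Bowtie, RSEM and hg19. The series' design text names TopHat with Cufflinks, and BWA with an ANOVA. Their roles and versions, and whether counting used strand, are not given in the sources used here. No counts were analysed, so no depth or counting interval is given.

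Knockout columns were matched to their group only: labels number the clones otherwise than the table, and replicate numbers were read from the column names. Where a symbol had several rows (342 symbols), that of highest mean was taken. Genes averaging 0.5 FPKM or more (15875) were tested on log2(FPKM + 1) with limma 3.58.1 (R 4.3.3, intensity trend) between 4 MSX2-/- and 2 WT libraries, with Benjamini-Hochberg adjustment over all of them. The filter used the mean over all libraries. The script was tested on simulated data. Further fits took the clones as 3 groups, added the replicate number, or tested its interaction with genotype. Replicate 2 minus replicate 1 differences correlated over 15875 genes between WT and 1# (r = 0.51), WT and 2# (r = 0.54) and 1# and 2# (r = 0.64), and the label descriptions give each number a set letter, so the numbers were taken to pair the libraries. Single values were tested by exact permutation (scipy 1.17.1, pandas 2.3.3, Python 3.11.15). Gene coordinates and overlaps came from GENCODE on GRCh38 and promoters from RefSeq, and no coordinate was converted. FGFR1 lacked a promoter entry in the table used.

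The naming rule took the 10 genes, MSX2, list genes called without the block, marker genes that define a list, and the 2 genes most like each called member. Other genes named from the lists, whether they passed with the block only or in neither fit, genes on the opposite strand and single marker genes were picked with their values in view. The 10 genes and all lists were chosen with earlier results of these data known, among them the calls of FGFR3, FGFBP3 and SPRY4, which are therefore no independent support. Alternatives were pseudocount 0.1, no filter, rescaled libraries, summed rows, no trend, single clones, the block, and leaving out each library.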

Additional observations from a re-analysis of the deposited data

How the results depend on the processing

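Of the 10 genes, 3 were called between MSX2-/- and WT by limma, and 3 also with pseudocount 0.1, rescaled libraries, summed rows or no trend. The count was 6 with the replicate block and 0 without the filter on low values. Without the filter 6 were at an unadjusted p under 0.05, as were 2680 of 29951 genes. There the block gave 4 (FGFR3, SPRY1, SPRY4 and DUSP6), and 510 of 29951 genes. The count was 0 with the clones as 3 groups, 0 with clone 1# alone and 0 with clone 2# alone. In these 3 fits 6, 6 and 5 of the 10 were at an unadjusted p under 0.05, as were 1466, 1194 and 955 of the 15875 genes. Leaving out 1 library gave 0 to 2: FGFR3 and FGFBP3 without WT replicate 2, SPRY4 without clone 2# replicate 1, and 0 without any of the other libraries. Leaving out 1 knockout library with the block, an alternative chosen after seeing the data, gave 5 to 6, with FGFR3, FGFBP3, SPRY1, SPRY4 and DUSP6 called each time. Over all genes these fits called 666 to 904 of 15875. Signs turned for FGFR4 without WT replicate 2 (-0.20, in a range up to 1.06 without 1 library), for its share of the receptor sum there (-0.0711 percentage points, in a range up to 1.57, against 0.751 with all libraries) and for FGFR2 without WT replicate 1 with the block (-0.17). The causes were not tested.

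Over all genes, 204 were called, and 1575 with the block, 127 without the filter, 510 with both changes, 6 with 3 groups, 0 with clone 1# alone (1194 unadjusted), 1 with clone 2# alone and 11 to 76 without 1 library. Clone 1# against WT gave 1 gene, 0 with pseudocount 0.1 or without the filter, and 550 with the block. Clone 2# gave 1, then 4, 0 and 596. With the block 5 of the 10 genes were called in each clone. Clone 2# against 1# gave 0 genes, and 1 with pseudocount 0.1. The replicate difference gave 4447 genes and 5 of the 10, and 0 and 0 without the filter (7361 genes unadjusted). Its interaction with genotype gave 3 genes, 0 with pseudocount 0.1 and 677 without the filter. Comparisons with WT rest on 2 WT libraries and those between clones on 2 libraries each, and without counts the precision of low genes such as FGFR2 is unknown.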
